A study of Arabidopsis thaliana with 6 samples.

Results

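The JASMONATE ZIM-DOMAIN (JAZ) genes encode the repressors of the jasmonate pathway, the hormone system that plants use against wounding, chewing insects and necrotrophic fungi. A JAZ protein binds MYC2 and related bHLH transcription factors and holds their target genes silent by recruiting the adaptor NINJA and the co-repressor TOPLESS. When jasmonoyl-isoleucine accumulates, it joins the JAZ protein to the F-box receptor COI1, the JAZ protein is degraded and the MYC factors are freed. Many JAZ genes are themselves MYC targets, so that a response is followed by fresh synthesis of its own repressors.

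JAZ4, JAZ11 and JAZ13 are given further below, in a list for comparison. The 10 genes described here are JAZ1, JAZ2, JAZ3, JAZ5 to JAZ10 and JAZ12. They were chosen by their gene identifiers, which were looked up among the 32594 loci of the deposited table, and all 10 were found, each as a locus of its own that merges no second gene. Their transcripts were measured by sequencing total RNA, depleted of ribosomal RNA, from untreated whole Arabidopsis thaliana seedlings aged 14 days and grown on MS plates under long days. The groups were apc8-1, a mutant of the APC8 subunit of the anaphase promoting complex, a ubiquitin ligase of the cell cycle; nrpe1-12, a mutant of NRPE1, the catalytic subunit of the plant polymerase Pol V that serves RNA-directed DNA methylation; and Col-0, the wild type. Each group had 2 libraries, and what the mutations do to APC8 or NRPE1 is not described in the labels. Nothing in the labels says that the 2 libraries came from separate plantings, so the p-values below measure only the spread between these libraries.

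Levels are FPKM as the authors computed them, a fragment count divided by transcript length and a measure of library size whose scaling is not stated. A level of 1 FPKM stood for an estimated 13.94 to 19.1 fragments per kilobase of transcript, and 16828 to 17301 loci reached it in a library. Libraries of the same genotype correlated at 0.989 to 0.991 across loci and those of different genotypes at 0.954 to 0.969. Differences were tested with limma on log2(FPKM + 1) over the 17802 loci that reached 1 FPKM in 2 or more libraries, and a locus was called at a Benjamini-Hochberg adjusted p below 0.05. APC8 had 1.80 and 1.93 FPKM in apc8-1, against 1.29 and 1.64 FPKM in Col-0, and was not called (log2 difference 0.22, adjusted p = 0.306). NRPE1 had 6.46 and 5.94 FPKM in nrpe1-12, against 2.71 and 2.91 FPKM in Col-0 (log2 difference 0.92, adjusted p = 0.000977).

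The transcript pool of the 10 JAZ genes was larger in both mutants, and a change in JAZ9 accounted for much of it in plain FPKM. The summed level of the 10 genes was 232 and 243 FPKM in apc8-1, 308 and 320 FPKM in nrpe1-12, and 190 and 185 FPKM in Col-0. The 3 genotypes did not overlap in this sum, and nrpe1-12 was highest. JAZ1, JAZ2, JAZ6, JAZ9 and JAZ12 together made up 92.5 to 95.2% of the pool in every library. JAZ9 alone held 26.5 and 26.1% of the pool in apc8-1, 30.2 and 32.3% in nrpe1-12, and 15.1 and 15.0% in Col-0. JAZ12 held 12.3 ± 0.823% in apc8-1, 10.9 ± 0.164% in nrpe1-12, and 18.6 ± 0.113% in Col-0 (SD, n = 2 each), so its share was smallest where the pool was largest. Its level in nrpe1-12, at 33.2 and 35.2 FPKM, overlapped with the 35.3 and 34.1 FPKM in Col-0, so only its share was smaller there. In RNA of whole seedlings, a lower level can come from fewer cells of a type or from less RNA per cell, and these cannot be told apart.

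**Figure D1:**
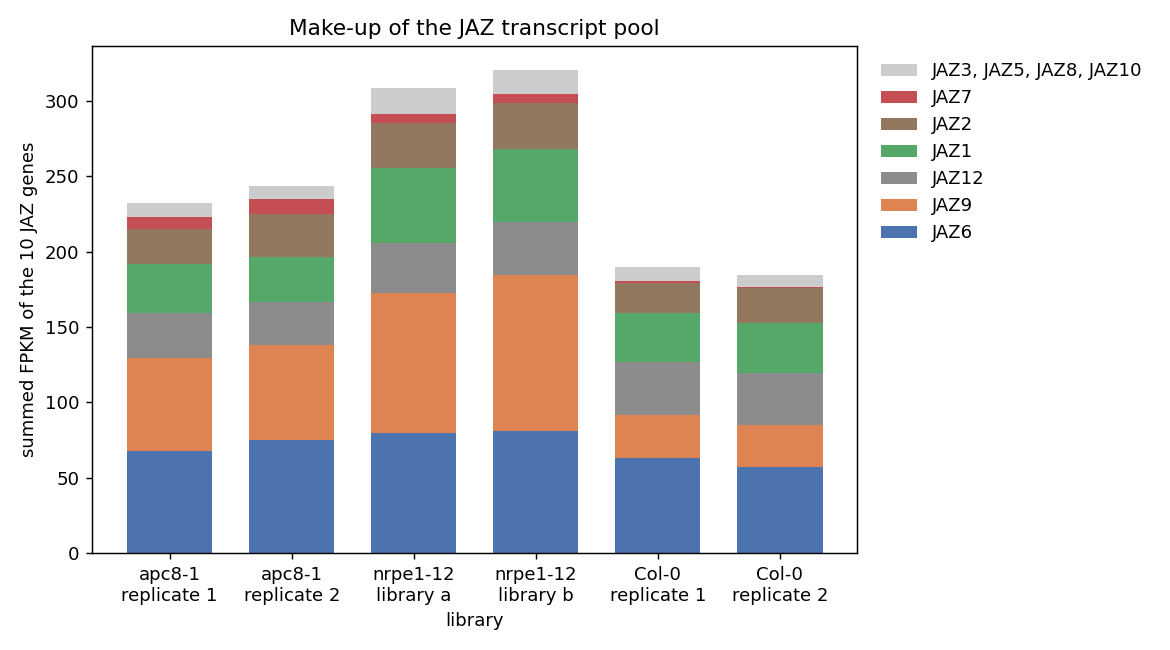
Stacked bars of the FPKM of the 10 JAZ genes in each library (vertical axis, summed FPKM; horizontal axis, library), with JAZ3, JAZ5, JAZ8 and JAZ10 drawn together. The bars reach 232 and 243 FPKM in apc8-1, 308 and 320 FPKM in nrpe1-12, and 190 and 185 FPKM in Col-0, and the JAZ9 block is taller in both mutants.

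The 10 genes also changed places among themselves. In apc8-1 the descending order was JAZ6, JAZ9, JAZ1, JAZ12, JAZ2, JAZ7, JAZ3, JAZ5, JAZ10 and JAZ8. There the libraries of JAZ1 and JAZ12, and those of JAZ12 and JAZ2, overlapped, and no other neighbours did. In nrpe1-12 JAZ9 stood first, followed by JAZ6, JAZ1, JAZ12, JAZ2, JAZ3, JAZ7, JAZ5, JAZ10 and JAZ8, of which JAZ10 and JAZ8 alone overlapped. In Col-0 the order was JAZ6, JAZ12, JAZ1, JAZ9, JAZ2, JAZ3, JAZ5, JAZ7, JAZ10 and JAZ8, with JAZ7 and JAZ10 overlapping. JAZ9 thus stood at place 2 in apc8-1, 1 in nrpe1-12 and 4 in Col-0, while JAZ8 was last in all 3.

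**Figure D2:**
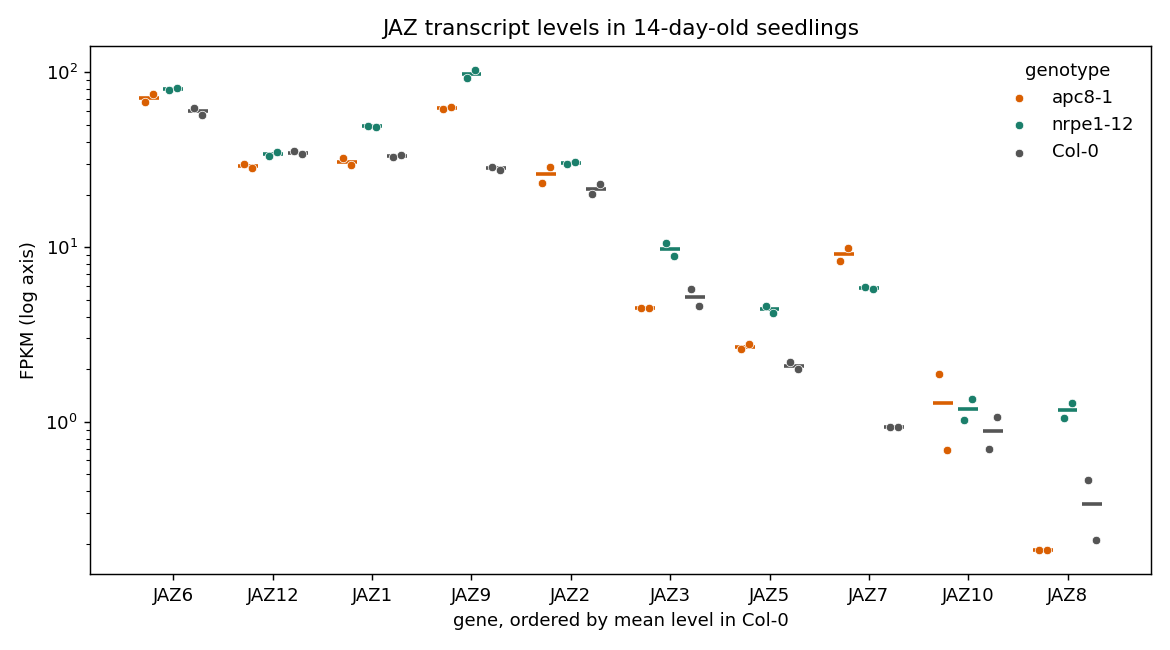
FPKM of each JAZ gene (vertical axis, log scale) in apc8-1, nrpe1-12 and Col-0, with a point per library and a bar at the mean of 2 libraries; genes run from left to right by their mean in Col-0. JAZ7 and JAZ9 stand above Col-0 in both mutants, and JAZ1, JAZ3 and JAZ5 stand apart in nrpe1-12.

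In apc8-1 against Col-0, JAZ7, JAZ9 and JAZ6 rose and JAZ12 fell, while JAZ1, JAZ2, JAZ3, JAZ5, JAZ8 and JAZ10 were not called. JAZ7 averaged 9.08 ± 1.12 FPKM in apc8-1 and 0.932 ± 0.00434 FPKM in Col-0 (SD, n = 2 each), a ratio of 9.74. JAZ9 averaged 62.5 ± 1.33 FPKM in apc8-1 and 28.2 ± 0.623 FPKM in Col-0 (SD, n = 2 each), a ratio of 2.22. Among all 17802 tested loci 30.2% were called in this comparison, 14.1% higher and 16.1% lower, so 4 of 10 JAZ genes, 3 higher and 1 lower, lies near that background. Of the higher genes, JAZ7 lay under 1 FPKM in Col-0 and was tested through the mutants alone. The median log2 difference of the 10 genes was 0.24, against 0.01 over all loci. The calls of JAZ6 and JAZ12 were weak. Without either Col-0 library or without apc8-1 replicate 2, JAZ7 and JAZ9 alone were called, and without apc8-1 replicate 1 the called genes were JAZ2, JAZ6, JAZ7 and JAZ9. With the replicate number of the libraries as a block the count was 2, and leaving out either nrpe1-12 library, which takes part in the pooled estimate of the spread, gave 3.

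In nrpe1-12 against Col-0 most of the 10 genes were higher. JAZ1, JAZ2, JAZ3, JAZ5, JAZ6, JAZ7, JAZ8 and JAZ9 rose, and JAZ10 and JAZ12 were not called. This was 8 of 10 genes higher and 0 lower, where 26.3% of all tested loci were called, 13.5% higher and 12.8% lower; limma put 0 of the 10 lower at an unadjusted p below 0.05 as well. JAZ8 reached 1 FPKM in nrpe1-12 only, so it had to differ once it was tested. JAZ7 lay under 1 FPKM in Col-0 and was tested through the mutants alone, so its higher direction carries the same limit. The median log2 difference of the 10 genes was 0.63, against -0.01 over all loci. JAZ4 and JAZ11, outside the 10, were not called in this comparison (log2 differences 0.02 and -0.29). JAZ1, JAZ3, JAZ5, JAZ6, JAZ7 and JAZ9 were called under every alternative in which they were tested. The count was 6 without Col-0 replicate 1 or without either nrpe1-12 library and 7 without Col-0 replicate 2, the losses being JAZ2 and JAZ8.

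Set directly against each other, apc8-1 had less JAZ1, JAZ3, JAZ5, JAZ8 and JAZ9 transcript than nrpe1-12, and more JAZ7. These were 5 genes lower and 1 higher, where 18.7% of all tested loci were called, 7.26% higher and 11.4% lower. JAZ8 was tested only through its level in nrpe1-12, so its lower level in apc8-1 follows from the filter. The median log2 difference was -0.38 for the 10 genes and 0.00 for all loci. JAZ1, JAZ3 and JAZ9 were called under every alternative. They were the 3 genes left without apc8-1 replicate 2 or without either nrpe1-12 library, and without apc8-1 replicate 1 JAZ7 was called as well. Both comparisons with Col-0 use the same 2 Col-0 libraries, so their values are given side by side and not as independent evidence.

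**Figure D3:**
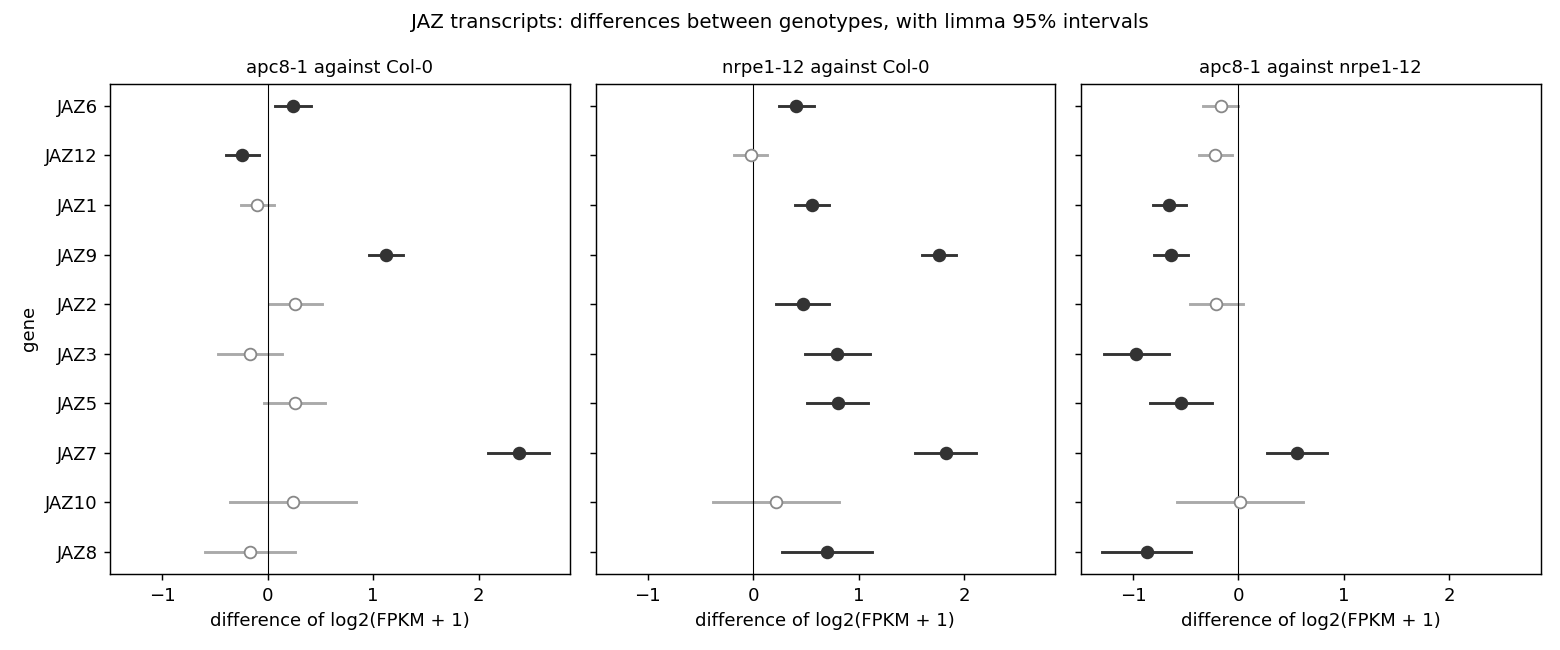
Difference of log2(FPKM + 1) for each JAZ gene (horizontal axis) with limma's 95% interval, with a panel for each pair of genotypes and the first-named genotype on top of the difference; filled points were called. JAZ7 and JAZ9 lie farthest to the right in both comparisons with Col-0, at 2.38 and 1.12 in apc8-1 and at 1.82 and 1.76 in nrpe1-12.

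JAZ7 (AT2G34600, TAIR10 chr2:14573080-14573856, plus strand) belongs with JAZ8 to a branch whose proteins carry an EAR motif, bind TOPLESS directly, and bind the receptor poorly. JAZ7 had 8.28 and 9.87 FPKM in apc8-1, 5.93 and 5.75 FPKM in nrpe1-12, and 0.929 and 0.935 FPKM in Col-0. No 2 genotypes overlapped, and this repressor, scarce in the wild type, stood at place 6 of the 10 genes in apc8-1. The log2 difference was 2.38 (SE 0.12, adjusted p = 1.07e-05) in apc8-1 and 1.82 (SE 0.12, adjusted p = 5.68e-05) in nrpe1-12. Between apc8-1 and nrpe1-12 it was 0.55 (SE 0.12, adjusted p = 0.0179). That last call was lost when apc8-1 replicate 2 or either nrpe1-12 library was left out (adjusted p = 0.106, 0.0703 and 0.0912). JAZ7 rests on few fragments in the wild type, an estimated 131 over both apc8-1 libraries, 82 over both nrpe1-12 libraries and 14 over both Col-0 libraries. The ratio to Col-0 was 9.70 (exact 95% interval 5.58 to 18.2) in apc8-1 and 6.42 (3.62 to 12.3) in nrpe1-12, intervals that cover counting error only. JAZ7 also entered the test through the mutants alone, since its level in Col-0 lay under 1 FPKM.

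JAZ8 (AT1G30135, chr1:10596492-10597239, plus strand), whose protein resists jasmonate-driven degradation, was the scarcest of the 10 genes. It had 0.184 and 0.184 FPKM in apc8-1, 1.05 and 1.28 FPKM in nrpe1-12, and 0.465 and 0.209 FPKM in Col-0. The nrpe1-12 libraries lay above the other 4, and both apc8-1 libraries lay just under Col-0. These levels stand for an estimated 2 fragments in apc8-1, 12 in nrpe1-12 and 4 in Col-0, each over both libraries. In nrpe1-12 the log2 difference was 0.70 (SE 0.18, adjusted p = 0.0249), and in apc8-1 it was -0.17 (SE 0.18, adjusted p = 0.536). By counting alone the ratio of nrpe1-12 to Col-0 was 3.29 with an exact 95% interval of 0.996 to 14.0, which includes no change. The call in nrpe1-12 was lost without Col-0 replicate 1 or 2 (adjusted p = 0.0562 and 0.166). Between apc8-1 and nrpe1-12 the log2 difference was -0.87 (SE 0.18, adjusted p = 0.0140), a p that carries the same limit as the call in nrpe1-12, since JAZ8 entered the test through nrpe1-12 alone. It was lost without either apc8-1 library (adjusted p = 0.0541 and 0.0524).

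JAZ9 (AT1G70700, chr1:26654639-26657078, plus strand) encodes a repressor that also binds the DELLA protein RGA, a link to gibberellin signalling. It had 61.5 and 63.4 FPKM in apc8-1, 93.1 and 103 FPKM in nrpe1-12, and 28.6 and 27.8 FPKM in Col-0. The 3 genotypes were well apart, with nrpe1-12 highest. The log2 difference was 1.12 (SE 0.07, adjusted p = 2.42e-05) in apc8-1, 1.76 (SE 0.07, adjusted p = 6.21e-06) in nrpe1-12 and -0.64 (SE 0.07, adjusted p = 0.000657) between apc8-1 and nrpe1-12. Over all alternatives it stayed between 1.03 and 1.15 in apc8-1 and between 1.65 and 1.84 in nrpe1-12. The assembled transcript is a splice form that differs from the annotated one, and the locus extends a little beyond the annotated gene (chr1:26654768-26657064).

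JAZ3 (AT3G17860, chr3:6119767-6123019, plus strand), the relative of JAZ9 in which a dominant jasmonate-insensitive mutation helped to define the family, behaved differently from JAZ9. It had 4.48 and 4.49 FPKM in apc8-1, 10.6 and 8.94 FPKM in nrpe1-12, and 5.79 and 4.60 FPKM in Col-0. The nrpe1-12 libraries stood clear of the rest, while apc8-1 lay just under the lower Col-0 library. JAZ3 rose in nrpe1-12, by 0.80 in log2 units (SE 0.13, adjusted p = 0.00326), and differed by -0.17 (SE 0.13, adjusted p = 0.384) in apc8-1. Between apc8-1 and nrpe1-12 it was -0.97 (SE 0.13, adjusted p = 0.00206).

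JAZ1 and JAZ2 encode 2 closely related repressors, JAZ1 being among the first proteins shown to be degraded through COI1 and JAZ2 being known for its role in stomatal guard cells. JAZ1 (AT1G19180, chr1:6622094-6623620, plus strand) had 32.2 and 29.5 FPKM in apc8-1, 49.4 and 48.8 FPKM in nrpe1-12, and 32.6 and 33.5 FPKM in Col-0. The nrpe1-12 level was raised, whereas apc8-1 stood slightly under Col-0. The log2 difference of JAZ1 was 0.56 (SE 0.07, adjusted p = 0.000786) in nrpe1-12, -0.10 (SE 0.07, adjusted p = 0.331) in apc8-1 and -0.65 (SE 0.07, adjusted p = 0.000587) between apc8-1 and nrpe1-12. The 95% interval of the apc8-1 difference from Col-0 ran from -0.26 to 0.06.

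JAZ2 (AT1G74950, chr1:28148575-28150444, minus strand) had 23.4 and 28.9 FPKM in apc8-1, 29.8 and 30.5 FPKM in nrpe1-12, and 20.1 and 23.0 FPKM in Col-0. Both mutants lay above Col-0, narrowly so for apc8-1 replicate 1. JAZ2 rose in nrpe1-12, by 0.47 in log2 units (SE 0.11, adjusted p = 0.0151), and differed by 0.26 (SE 0.11, adjusted p = 0.108) in apc8-1. Without Col-0 replicate 1, nrpe1-12 library a or nrpe1-12 library b the call in nrpe1-12 was lost (adjusted p = 0.102, 0.0606 and 0.0735). The apc8-1 difference passed without apc8-1 replicate 1 (log2 difference 0.41, adjusted p = 0.0262). The direct log2 difference between apc8-1 and nrpe1-12 was -0.21, with a 95% interval of -0.46 to 0.04 and adjusted p = 0.241.

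JAZ5 and JAZ6 form another related pair with levels far apart. JAZ6 (AT1G72450, chr1:27274065-27276317, minus strand), implicated in daily changes of resistance to Botrytis, had 67.8 and 74.8 FPKM in apc8-1, 79.5 and 81.0 FPKM in nrpe1-12, and 62.8 and 57.4 FPKM in Col-0. It was the most abundant JAZ transcript of the wild type, and its differences between genotypes were small but without overlap. JAZ6 rose in nrpe1-12, by 0.41 in log2 units (SE 0.07, adjusted p = 0.00453), and by 0.24 (SE 0.07, adjusted p = 0.0386) in apc8-1. The apc8-1 call was lost in 10 of 16 alternatives, among them leaving out Col-0 replicate 1 or 2, apc8-1 replicate 2 and nrpe1-12 library a or b (adjusted p = 0.0593, 0.231, 0.169, 0.0569 and 0.0568). Between apc8-1 and nrpe1-12 the log2 difference was -0.17 (adjusted p = 0.158).

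JAZ5 (AT1G17380, chr1:5955488-5957212, minus strand), which acts with JAZ10 to restrain jasmonate responses, had 2.62 and 2.77 FPKM in apc8-1, 4.60 and 4.19 FPKM in nrpe1-12, and 2.19 and 2.00 FPKM in Col-0. The order of the genotypes matched that of JAZ6 at a far lower level. JAZ5 rose in nrpe1-12, by 0.80 in log2 units (SE 0.13, adjusted p = 0.00259), and differed by 0.26 (SE 0.13, adjusted p = 0.166) in apc8-1. It was -0.54 (SE 0.13, adjusted p = 0.0203) between apc8-1 and nrpe1-12. That call was lost without apc8-1 replicate 1, apc8-1 replicate 2, nrpe1-12 library a or nrpe1-12 library b (adjusted p = 0.0813, 0.0591, 0.105 and 0.0650).

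JAZ10 (AT5G13220, chr5:4218888-4220883, plus strand), a strongly jasmonate-induced repressor with splice forms of differing stability, gave no call. It had 1.87 and 0.693 FPKM in apc8-1, 1.03 and 1.34 FPKM in nrpe1-12, and 0.698 and 1.06 FPKM in Col-0. The 2 apc8-1 libraries were the highest and the lowest of the 6, so the genotypes overlapped throughout. The log2 difference was 0.24 (SE 0.26, adjusted p = 0.537) in apc8-1, with a 95% interval of -0.36 to 0.83. In nrpe1-12 it was 0.22 (SE 0.26, adjusted p = 0.583), with an interval of -0.38 to 0.82. Differences within these intervals could not be told from none, and the width of the intervals goes with the gap between the 2 apc8-1 libraries. Between apc8-1 and nrpe1-12 the log2 difference was 0.02 (adjusted p = 0.975).

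JAZ12 (AT5G20900, chr5:7090612-7094446, plus strand), whose protein is kept stable by the ubiquitin ligase KEG, was the sole gene of the 10 called lower in a mutant against Col-0. It had 30.0 and 28.5 FPKM in apc8-1, 33.2 and 35.2 FPKM in nrpe1-12, and 35.3 and 34.1 FPKM in Col-0. The apc8-1 libraries lay under the other 4, and nrpe1-12 overlapped with Col-0. The log2 difference was -0.24 (SE 0.07, adjusted p = 0.0316) in apc8-1, -0.02 (SE 0.07, adjusted p = 0.851) in nrpe1-12 and -0.22 (SE 0.07, adjusted p = 0.0634) between apc8-1 and nrpe1-12. The apc8-1 call was lost without Col-0 replicate 1 or 2 and without apc8-1 replicate 1 or 2 (adjusted p = 0.168, 0.0994, 0.0532 and 0.120). The JAZ12 locus runs beyond the annotated gene (chr5:7090704-7092539) and covers the same span as AT5G20910 on the other strand. AT5G20910 had 8.55 and 9.74 FPKM in apc8-1, 11.6 and 12.8 FPKM in nrpe1-12, and 13.7 and 11.5 FPKM in Col-0, and it too was called lower in apc8-1 (log2 difference -0.42, adjusted p = 0.0254). The strand used in counting is not stated, so fragments of these 2 loci cannot be told apart with certainty. The other 9 JAZ loci overlap no other locus of the table, and 6 of the 10 genes lie on chromosome 1.

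Patterns over the 6 libraries were compared by the Euclidean distance between centred log2(FPKM + 1) values, which were not scaled. The distance therefore also depends on the size of the changes, and genes that change little lie close to each other. For instance, JAZ6 lay 0.55 from JAZ12, which fell in apc8-1, and 1.38 from JAZ9, which rose in both mutants. Among the 10 genes JAZ2 and JAZ6 were closest (0.26), followed by JAZ3 and JAZ8 (0.29). JAZ7 and JAZ9 lay 1.43 apart despite rising in both mutants. The differences of JAZ8 rest on few fragments and are understated on this scale. Among all other tested loci the nearest to JAZ7 were DREB26 (AT1G21910), a transcription factor of the AP2/ERF class, at 0.26, AT1G49500 at 0.46 and EXO (AT4G08950), a gene of the EXORDIUM family, at 0.61, where the median locus lay at 2.52. DREB26 had 58.6 and 59.2 FPKM in apc8-1, 46.0 and 43.6 FPKM in nrpe1-12, and 10.2 and 11.8 FPKM in Col-0. The nearest to JAZ9 were RING1 (AT5G10380), a RING-finger gene, at 0.26, PGL5 (AT5G24420) at 0.30 and AT1G55960 at 0.31, with a median of 1.84. The nearest to JAZ3 were CML41 (AT3G50770), a calmodulin-like gene, at 0.20, CYP79F1 (AT1G16410), an aliphatic glucosinolate gene, at 0.22 and BGLU46 (AT1G61820) at 0.22, with a median of 1.16. CML41 had 6.90 and 7.43 FPKM in apc8-1, 18.5 and 15.7 FPKM in nrpe1-12, and 9.46 and 8.09 FPKM in Col-0. These loci were picked as the nearest in these same libraries, so their likeness to the JAZ genes follows from the choice.

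The 10 JAZ genes belong to the TIFY family, whose other genes, JAZ4, JAZ11 and JAZ13 among them, were listed for comparison. Of 6 such genes 5 were tested, and in nrpe1-12 0 were called higher and 1 lower (0 higher and 2 lower at limma's unadjusted p below 0.05). The lower call was PPD2 (log2 difference -0.28, adjusted p = 0.0384), a regulator of leaf growth whose locus is merged with a neighbouring gene, and it was lost without Col-0 replicate 1, Col-0 replicate 2 or nrpe1-12 library a. In apc8-1 TIFY8 was higher (0.52, adjusted p = 0.00191) and JAZ4 lower (-0.51, adjusted p = 0.0489). JAZ4 had 0.470 and 0.767 FPKM in apc8-1, 1.39 and 1.28 FPKM in nrpe1-12, and 1.35 and 1.25 FPKM in Col-0, and its call was lost whichever library was left out. JAZ11 had 16.8 and 16.0 FPKM in apc8-1, 14.2 and 16.4 FPKM in nrpe1-12, and 19.7 and 18.1 FPKM in Col-0, and was called in neither mutant. JAZ13, at no more than 0.722 FPKM in any library, was not tested. The counts of this and the following lists stand against 14.1% of all tested loci called higher and 16.1% lower in apc8-1. In nrpe1-12 these shares were 13.5% higher and 12.8% lower. They are shares of adjusted calls. Counts at an unadjusted p below 0.05 have no share of all loci beside them and cannot be set against these.

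Transcripts of the proteins that JAZ repressors work with gave few calls. COI1, the jasmonate receptor, had 17.9 and 17.1 FPKM in apc8-1, 16.8 and 17.6 FPKM in nrpe1-12, and 16.4 and 17.6 FPKM in Col-0. NINJA, the adaptor to TOPLESS, had 20.3 and 18.4 FPKM in apc8-1, 19.0 and 16.5 FPKM in nrpe1-12, and 20.1 and 20.1 FPKM in Col-0. Neither gene was called in either mutant. Of the 9 genes of the receptor complex and co-repressors, limma called TPR3 alone in apc8-1 (-0.29, adjusted p = 0.0439), a call lost whichever library was left out. In nrpe1-12 it called 0 of 9, with 2 higher and 2 lower at an unadjusted p below 0.05. It called 4 lower once organelle and ribosomal RNA genes were dropped from the scaling. Under that scaling the median log2 difference was -0.15 for the 9 genes and -0.11 for all loci.

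The bHLH factors that JAZ proteins hold in check moved in differing directions. MYC2, the chief activator of the wound branch, had 19.4 and 21.2 FPKM in apc8-1, 21.5 and 21.8 FPKM in nrpe1-12, and 14.1 and 15.0 FPKM in Col-0. It was higher in nrpe1-12 (log2 difference 0.54, adjusted p = 0.00190) and in apc8-1 (0.45, adjusted p = 0.00389), with no overlap. Of 8 tested genes in this list 1 was higher and 4 lower in apc8-1, and 1 was higher and 1 lower in nrpe1-12. The nrpe1-12 counts lie near the shares over all tested loci. The lower ones in apc8-1 included TT8, an anthocyanin regulator (-1.08, adjusted p = 0.00254), MYC3, a partner of MYC2 (-0.48, adjusted p = 0.00263), and JAM3, a bHLH repressor that opposes MYC2 (-0.44, adjusted p = 0.00310). MYC4, a further partner, was lower in apc8-1 than in nrpe1-12 (-0.60, adjusted p = 0.00600).

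Among the genes that make jasmonate, several fell in apc8-1. Of 12 tested biosynthesis genes 0 were higher and 6 lower in apc8-1 by limma (0 higher and 9 lower at an unadjusted p below 0.05), with a median log2 difference of -0.34. AOC1, AOC2 and AOS, enzymes that act in the chloroplast on the way to the precursor OPDA, fell by 0.93, 0.83 and 0.79 on the log2 scale (adjusted p = 3.86e-05, 5.15e-05 and 5.89e-05). In nrpe1-12 3 were higher and 1 lower, with LOX2, the main wound lipoxygenase, at 0.43 (adjusted p = 0.00418) and OPCL1, which activates the precursor for its later shortening, at 0.34 (adjusted p = 0.0260). LOX2 had 68.7 and 59.8 FPKM in apc8-1, 161 and 154 FPKM in nrpe1-12, and 116 and 118 FPKM in Col-0, so that the mutants lay on opposite sides of the wild type. The number of lower genes in apc8-1 ranged from 4 to 6 when single libraries were left out. In nrpe1-12 the number of higher genes was 1 without either Col-0 or either nrpe1-12 library, and under the scaling without organelle and ribosomal RNA genes it was 1, with 2 lower. AOC genes are close paralogs, and the split of fragments between them is uncertain.

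Genes that inactivate jasmonate or are induced by it moved in opposite ways in the mutants in some cases and together in others. JOX3, a jasmonate hydroxylase gene that is itself induced by jasmonate, had 2.37 and 2.27 FPKM in apc8-1, 15.9 and 16.7 FPKM in nrpe1-12, and 5.04 and 3.66 FPKM in Col-0. JOX3 rose in nrpe1-12 (log2 difference 1.70, adjusted p = 0.000120) and fell in apc8-1 (-0.68, adjusted p = 0.00757). ST2A, a sulfotransferase gene for hydroxylated jasmonate, had 18.2 and 18.4 FPKM in apc8-1, 13.9 and 14.2 FPKM in nrpe1-12, and 38.8 and 36.5 FPKM in Col-0, and fell in both mutants (adjusted p = 4.56e-05 in apc8-1 and 1.75e-05 in nrpe1-12). JOX4 and ILL6, a conjugate hydrolase gene, were called higher in both mutants, JOX4 by 0.60 in apc8-1 and 1.73 in nrpe1-12 (adjusted p = 0.0248 and 0.000214) and ILL6 by 0.58 and 0.93 (adjusted p = 0.0347 and 0.00520). JOX4 had 0.901 and 0.937 FPKM in apc8-1, 2.84 and 3.61 FPKM in nrpe1-12, and 0.282 and 0.251 FPKM in Col-0. It entered the test through nrpe1-12 alone, so its direction there follows from the filter. Its apc8-1 call compares levels under 1 FPKM. IAR3, a further hydrolase gene, fell in apc8-1 (-0.61, adjusted p = 0.00168). Of 8 tested turnover genes 3 were higher and 3 lower in apc8-1, and 4 were higher and 1 lower in nrpe1-12. The 3 higher ones in apc8-1 became 1 without Col-0 replicate 1 or 2 or apc8-1 replicate 1, and 0 without apc8-1 replicate 2. VSP2, a vegetative storage protein gene used as a marker of the MYC2 branch, had 4.34 and 4.79 FPKM in apc8-1, 62.7 and 64.1 FPKM in nrpe1-12, and 5.87 and 6.73 FPKM in Col-0. It rose in nrpe1-12 (log2 difference 3.14, adjusted p = 1.65e-06) and fell in apc8-1 (-0.39, adjusted p = 0.0156). Of 4 genes of that branch 3 were higher in nrpe1-12 and 0 lower, also at limma's unadjusted p below 0.05, and in apc8-1 1 was higher and 2 lower. VSP1 rose in nrpe1-12 (1.29, adjusted p = 0.00331), CORI3 fell in apc8-1 (-0.86, adjusted p = 0.0108), and TAT3, a tyrosine aminotransferase gene, was higher in both mutants (0.84 in apc8-1 and 0.46 in nrpe1-12, adjusted p = 0.00249 and 0.0382). Leaving out any single library reduced the 3 higher genes in nrpe1-12 to 2.

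Targets of the ethylene branch, which JAZ proteins restrain through EIN3, did not move as a block. PDF1.2, a defensin gene, had 2.61 and 1.48 FPKM in apc8-1, 25.3 and 25.3 FPKM in nrpe1-12, and 4.70 and 4.70 FPKM in Col-0. It rose in nrpe1-12 (log2 difference 2.21, adjusted p = 8.61e-05) and fell in apc8-1 (-0.93, adjusted p = 0.00414). PR4, an antifungal chitin-binding protein gene, had 100.4 and 95.1 FPKM in apc8-1, 190 and 173 FPKM in nrpe1-12, and 259 and 264 FPKM in Col-0, and so was lower in both mutants (log2 differences -1.41 and -0.53). Of 4 tested genes 0 were higher and 2 lower in apc8-1 by limma (0 and 4 at an unadjusted p below 0.05), and 1 was higher and 2 lower in nrpe1-12.

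**Figure D4:**
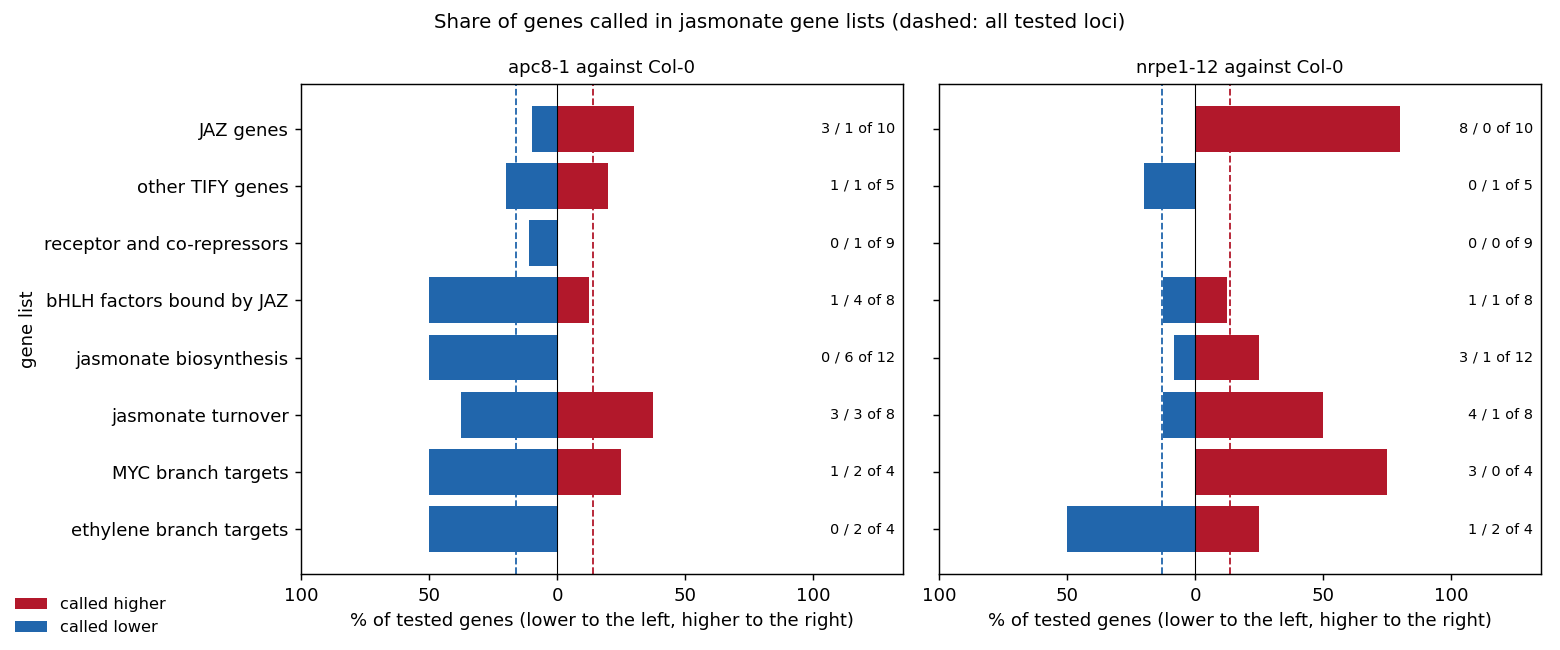
Percent of the tested genes of each jasmonate list called higher (to the right) and lower (to the left) in apc8-1 against Col-0 and in nrpe1-12 against Col-0, with the counts of higher and lower calls printed beside each bar; dashed lines mark the percent of all tested loci called higher and lower. The JAZ genes stand at 8 higher of 10 in nrpe1-12 and 3 higher of 10 in apc8-1, and biosynthesis genes at 6 lower of 12 in apc8-1.

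Genes of other groups outside the pathway also differed between the genotypes, and their part in the JAZ differences was not tested. The 3 touch genes TCH2, TCH3 and TCH4, which respond to handling and calcium, summed to 503 to 505 FPKM in apc8-1, 646 to 688 FPKM in nrpe1-12, and 194 to 208 FPKM in Col-0, and all 3 were called higher in each mutant. Of 8 tested clock genes 4 were higher and 1 lower in apc8-1, and 3 higher and 4 lower in nrpe1-12. The 4 higher in apc8-1 became 2 without Col-0 replicate 1, Col-0 replicate 2 or apc8-1 replicate 2. CCA1, a morning clock gene, rose in nrpe1-12 (log2 difference 1.47, adjusted p = 1.00e-05) and LHY, its partner, likewise (1.26, adjusted p = 4.30e-05), while PRR5, an afternoon gene, fell (-1.79, adjusted p = 7.24e-05).

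Tissue markers shifted as well. The 8 leaf markers summed to 24177 to 25362 FPKM in apc8-1, 26917 to 28392 FPKM in nrpe1-12, and 18425 to 18525 FPKM in Col-0, and all 8 were called higher in each mutant (4 of 8 under quantile normalization). The root markers were split, and of 5 tested 1 was higher and 4 lower in each mutant. Of the lower ones, EXPA18, PRP3 and CASP1 reached 1 FPKM in Col-0 alone, so their direction follows from the filter. SCR, an endodermis regulator, had 7.35 and 7.30 FPKM in apc8-1, 6.76 and 7.52 FPKM in nrpe1-12, and 5.35 and 5.14 FPKM in Col-0, and was called higher in both mutants (log2 differences 0.42 and 0.38, adjusted p = 0.0172 and 0.0273). The lower ones included NRT2.1, a root nitrate transporter gene (log2 differences -3.17 and -1.04, adjusted p = 1.22e-05 and 0.00312), and PRP3, a root hair cell wall gene (-1.99 and -1.75, adjusted p = 0.000168 and 0.000381). Without either Col-0 library 2 of the root markers were tested, 1 was called lower in each mutant, and SCR was no longer called. All 8 root markers summed to 8.50 to 9.19 FPKM in apc8-1, 11.5 to 14.1 FPKM in nrpe1-12, and 23.7 to 26.1 FPKM in Col-0, and 2 of them, among them the root hair gene EXPA7, are listed at 0 in each apc8-1 library, against 3 and 1 in nrpe1-12 and 1 and 0 in Col-0. The 5 flower and seed markers summed to 2.00 to 2.89 FPKM in apc8-1, 2.18 to 2.86 FPKM in nrpe1-12, and 0.386 to 0.698 FPKM in Col-0, low throughout but without overlap between the mutants and Col-0. PI, a petal and stamen identity gene and the sole tested gene of that list, was called higher in both mutants (log2 differences 1.09 and 1.05, adjusted p = 0.00321 and 0.00437). At 0.0601 and 0.321 FPKM in Col-0, PI entered the test through the mutants alone, so its direction follows from the filter. The untested genes of the list differed: CRA1 was higher in both mutants and AG overlapped throughout. AP3 was listed at 0 in both apc8-1 libraries, against 0.129 and 0.172 FPKM in Col-0. JAZ1, JAZ3, JAZ8 and JAZ12, whose levels in apc8-1 lay under Col-0, were measured in these same libraries. Of these genes JAZ12 alone was called in apc8-1 against Col-0. The part of the marker shifts in the JAZ differences was not tested.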

How the data were processed

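RNA of 6 libraries was analysed, 2 for each of apc8-1, nrpe1-12 and Col-0. The authors deposited FPKM per locus and library; the submitters' processing notes name TopHat2 2.0.13, Cufflinks 2.2.1, Cuffnorm 2.2.1 and the TAIR10 build. The role of each, the scaling and the strand of counting are not given in the sources used. Both nrpe1-12 columns carry the same header, so they are called library a and b. A sheet of assembled transcripts was used for coordinates and class codes; splice forms and sequences were not analysed here. Gene names came from RefSeq (31393 of 32069 loci with 1 gene name).

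Values were transformed to log2(FPKM + 1), and the 17802 loci that reached 1 FPKM in 2 or more libraries were fitted with limma 3.58.1 in R 4.3.3 (lmFit, eBayes with an intensity trend, 3 residual and 4.93 prior degrees of freedom), with Benjamini-Hochberg adjustment over all tested loci. Fold changes of genes near 1 FPKM are understated on this scale. An exact permutation test of 2 against 2 libraries cannot go below p = 0.333. The script was tested on simulated data. No fragment totals were used; the value of 1 fragment was estimated from steps between low FPKM values, 99.4 to 100% of which lay within 0.15 of a whole number. Near-identical paralogs may share fragments.

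The text names all 10 JAZ genes, genes from among the up to 3 called ones with the smallest p in each other list and comparison, and, for the 3 JAZ genes with the widest range of genotype means, the 3 nearest loci. COI1, NINJA, JAZ11, JAZ13, ILL6, SCR, EXPA7, CASP1, AP3, AG, CRA1, APC8, NRPE1, rbcL and AT5G20910 are named outside that rule. They were chosen after their values were seen. The members and the 13 lists (101 genes, 100 found and 85 tested) were chosen with earlier results of these data known. Alternatives were other pseudocounts, filters and scalings, no trend, a fit of the genotypes compared, a replicate block, and each library left out; list counts under these were added after the data were seen.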

Additional observations from a re-analysis of the deposited data

How the results depend on the processing

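Across alternatives 443 fold changes of JAZ genes were computed, of which 402 kept their direction and side of the threshold, 33 lost a call, 1 gained one (JAZ2) and 7 turned round; 11 of 18 calls held in every alternative in which the gene was tested. JAZ8, JAZ5 and JAZ10 could not be fitted under the filter of 5 FPKM, nor JAZ8 without either nrpe1-12 library. Leaving out single libraries, 3252 to 5168 loci were called in apc8-1 against Col-0 (5384 with all), 2710 to 4857 in nrpe1-12 against Col-0 (4679) and 1822 to 2835 in apc8-1 against nrpe1-12 (3327). JAZ genes called numbered 2 to 4 in apc8-1 against Col-0, 6 to 8 in nrpe1-12 against Col-0 and 3 to 6 in apc8-1 against nrpe1-12. Without the intensity trend 2 were called in apc8-1, and with the replicate block 2 (4928 loci). Same-numbered libraries of apc8-1 and Col-0 gave a correlation of deviations of -0.059, which over 2 pairs cannot show whether they shared a planting or batch, and no paired analysis was possible for nrpe1-12, whose columns carry no separate numbers.

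Directions that turned round belong to uncalled differences. JAZ8 in apc8-1 gave 0.16 under quantile normalization, and JAZ10 in apc8-1 against nrpe1-12 gave -0.028 with a pseudocount of 0.1. Over single libraries left out, JAZ10 ranged from -0.14 to 0.62 in apc8-1 against Col-0 and from -0.36 to 0.40 in apc8-1 against nrpe1-12, and JAZ12 from -0.064 to 0.020 in nrpe1-12 against Col-0. When genes of the organelles and ribosomal RNA were dropped from the scaling, the median of all loci moved to -0.07 in apc8-1 and -0.11 in nrpe1-12; the share of higher calls was 31.9% against 46.6% in apc8-1 and 31.4% against 51.4% in nrpe1-12, JAZ6 lost its call in apc8-1 (adjusted p = 0.166), and 8 JAZ genes remained higher in nrpe1-12. Under that scaling 9 biosynthesis genes were lower in apc8-1 and 4 receptor complex and co-repressor genes lower in nrpe1-12. Of all loci, 3702 were then called lower in apc8-1 and 3721 in nrpe1-12, against 2873 and 2273 in the main fit. The median was -0.41 for the biosynthesis genes in apc8-1. For the receptor complex and co-repressor genes in nrpe1-12 it was -0.15, near that of all loci. The cause of these shifts was not tested. The chloroplast gene rbcL was listed at 0 in both libraries of each mutant and in Col-0 replicate 1. In Col-0 replicate 2 it was listed at 45404.5 FPKM, and its part in the shifts was not tested. Depth limits JAZ7, JAZ8 and JAZ10 most.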
